A study of Mus musculus with 36 samples.

Results

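The comparison described here pooled the mouse embryonic stem cell (mESC) lines in which SMCHD1 function was lost and set them against the lines in which SMCHD1 was functional, at day 7 of differentiation under induced Xist expression. The members were chosen by line and day alone. They comprise 16 libraries of 7 lines, out of 36 libraries of 8 lines in the series. The loss group holds 8 libraries, with 2 each from SMCHD1 KO, E147A, Y353C and LRIF1 KO. The functional group holds 8 libraries, with 2 from iXist-ChrX, 3 from Halo-SMCHD1 and 3 from G137E. All 7 lines are XX mESCs from a Cast x 129S cross, in which a doxycycline-inducible promoter drives Xist from the 129S X chromosome and the rtTA transactivator sits at the Tigre locus. All 16 cultures were differentiated as monolayers for 7 days in 1 µg/ml doxycycline (dox).

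iXist-ChrX is the starting line, and SMCHD1 KO lacks SMCHD1 in this untagged background. Halo-SMCHD1 carries a Halo tag on the endogenous SMCHD1 and, per the methods, a transgene for eGFP-CIZ1 at Rosa26, a fluorescent marker of the Xi, so the tagged and untagged backgrounds differ in both. In that tagged background LRIF1 KO lacks LRIF1, and E147A, Y353C and G137E each carry a biallelic substitution in the GHKL ATPase domain. E147A and Y353C are described as losing ATPase activity, whereas G137E is described as gaining it, so the functional group also contains a mutant line. Each line is 1 clone, so a difference between lines cannot be told apart from a difference between clones. The substitutions and knockouts lie on autosomes, in Smchd1 on chromosome 17 and Lrif1 on chromosome 3, and therefore could not be checked in the X-linked table. The table gives no expression levels, and the cell type could not be checked against markers.

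In X chromosome inactivation (XCI), Xist RNA coats the chromosome from which it is transcribed and silences its genes. Silencing proceeds over days at rates that differ between genes. SMCHD1 is a chromosomal ATPase of the SMC family that is recruited to the inactive X chromosome (Xi) during XCI. It is required for complete silencing of a subset of genes and for their long-term repression. LRIF1 binds HP1 proteins and SMCHD1, and links SMCHD1 to chromatin marked by H3K9 methylation.

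The substituted codons are shown because they define 3 of the 7 lines. In the Smchd1 coding sequence of mm10 (minus strand of chromosome 17), the codon substituted in G137E lies in exon 3 at chr17:71463775-71463777, that in E147A in exon 4 at chr17:71456484-71456486 and that in Y353C in exon 9 at chr17:71441948-71441950. The reference sequence around each is given 5′ to 3′, joined across exons, with the substituted codon in capitals.
G137E: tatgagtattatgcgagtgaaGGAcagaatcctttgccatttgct
E147A: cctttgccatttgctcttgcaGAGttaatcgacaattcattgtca
Y353C: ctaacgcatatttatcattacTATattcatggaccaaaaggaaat
The first 2 codons lie so close that their windows share bases, yet G137E belongs to the functional group and E147A to the loss group.

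Chromatin-associated RNA was sequenced (ChrRNA-seq), which follows nascent transcription. The value of each gene in each library was the fraction Xi/(Xi+Xa), the share of allele-specific reads from the 129S X chromosome (Xi) among those from both X chromosomes, where Xa is the active Cast chromosome. A fraction near 0.5 means that both alleles are transcribed alike, and 0 that no Xi read was counted. The table holds 249 X-linked genes. The read counts behind the fractions were not given, so the depth of each library is unknown and no counting error can be stated.

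Most X-linked genes had a higher Xi fraction in the loss lines than in the functional lines at day 7, along the whole of the chromosome covered. The difference in fraction between the mean of the 4 loss lines and the mean of the 3 functional lines lay above 0 for 220 of 249 genes (88.4%), and on the log2 odds scale used below for 219 (88%). With lines as the unit 6 genes passed the test, all higher in the loss lines, and 56 genes lay higher in each loss line than in each functional line. No gene lay lower in each loss line than in each functional line.

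The median fraction over all genes was 0.0526 and 0.0714 in the SMCHD1 KO libraries, 0.0526 and 0.101 in E147A, 0.0513 and 0.0571 in Y353C, and 0.0362 and 0.0492 in LRIF1 KO. The functional libraries stood at 0.0549 and 0.0386 (iXist-ChrX), at 0.0198, 0.0372 and 0.0426 (Halo-SMCHD1), and at 0.0301, 0.0299 and 0.0460 (G137E). The groups overlapped. The higher iXist-ChrX library lay above 5 of the loss libraries, and a LRIF1 KO library lay below 5 of the functional libraries. The highest value belonged to an E147A library whose replicate number could not be matched to a label, and the lowest to Halo-SMCHD1 replicate 1, in which 24.5% of genes were listed at 0.

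**Figure D1:**
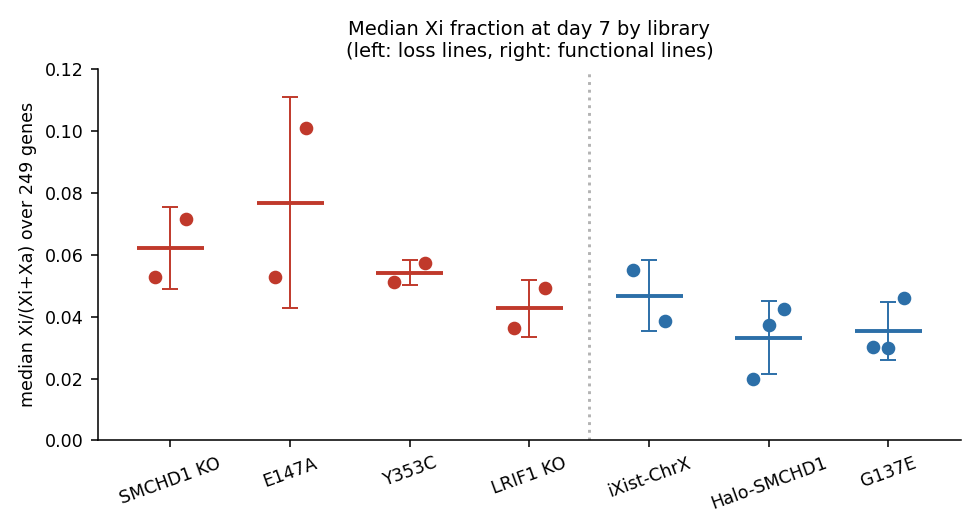
Median Xi/(Xi+Xa) over 249 genes (y axis) for each of the 16 libraries at day 7, by line (x axis, loss lines in red, functional lines in blue). Points are libraries, horizontal bars line means and error bars the SD between libraries; SMCHD1 KO, E147A and Y353C have higher means than the 3 functional lines, and LRIF1 KO lies below iXist-ChrX.

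Averaged by line, the medians were 0.0620 ± 0.0133 for SMCHD1 KO, 0.0767 ± 0.0341 for E147A, 0.0542 ± 0.00414 for Y353C and 0.0427 ± 0.00919 for LRIF1 KO (SD, n = 2 each). The functional lines gave 0.0467 ± 0.0116 for iXist-ChrX (SD, n = 2), 0.0332 ± 0.0119 for Halo-SMCHD1 and 0.0353 ± 0.00921 for G137E (SD, n = 3 each). The loss lines averaged 0.0589 ± 0.0143 (SD, n = 4) and the functional lines 0.0384 ± 0.00728 (SD, n = 3), a difference of 0.0205 or 1.53-fold. This difference did not pass a two-sided exact permutation test over the 7 line values (p = 0.1143), for which the smallest attainable p is 0.0571. With the library as the unit the difference was 0.0215 and passed (two-sided exact permutation test, 8 against 8, p = 0.006682), but this test counts libraries of 1 clone as independent. Within the Halo-tagged background, the 3 loss lines exceeded Halo-SMCHD1 and G137E by 0.0236 (exact permutation test, p = 0.2, the smallest that 3 against 2 allows).

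For single genes, limma was run on the log2 odds, log2((r + 0.01)/(1 - r + 0.01)), where r is the fraction. A difference of 1 on this scale is a doubling of the odds of an Xi read. With 1 average per line, 6 genes were higher in the loss lines at an adjusted p under 0.05, or 2.41% of the 249 tested, and 0 were lower. At an unadjusted p under 0.05 the numbers were 68 higher (27.3%) and 1 lower (0.402%), the latter being Nr0b1, a nuclear receptor gene. With libraries as the unit 51 genes were higher (20.5%) and 0 lower, and 94 (37.8%) and 0 at an unadjusted p under 0.05. All 6 genes called with lines as the unit were among these 51. With the line as a random block 48 genes (19.3%) were called, at a fitted correlation of 0.0196 between libraries of a line.

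The 6 genes called with lines as the unit were Flna, Ikbkg, Fam50a, Phf6, BC023829 and Zxda, each with an adjusted p of 0.0416. Their loss line means lay 2.59 to 5.26 times above their functional line means. In each of them the 4 loss line means lay above the 3 functional line means, but single libraries overlapped in 5 of them. The number of calls depended on single libraries, and was 5 to 9 without G137E replicates 1 or 3 or either Y353C library. Without iXist-ChrX library b, either SMCHD1 KO library, either E147A library, Halo-SMCHD1 replicates 1 or 2, G137E replicate 2 or LRIF1 KO replicate 2, left out in turn, 0 genes were called, whereas leaving out iXist-ChrX library a gave 36 calls, LRIF1 KO replicate 1 gave 24, and replicate 3 of Halo-SMCHD1 gave 13.

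Flna (chrX:74223460-74246534) encodes filamin A, which crosslinks actin filaments. Its fraction was 0.106 and 0.135 in SMCHD1 KO, 0.114 and 0.0961 in E147A, 0.0964 and 0.0820 in Y353C, and 0.0758 and 0.0459 in LRIF1 KO. In the functional libraries it was 0.0305 and 0.0193 in iXist-ChrX, while Halo-SMCHD1 gave 0.0215, 0.0234 and 0.0239, and G137E gave 0.0531, 0.0252 and 0.0368. A single G137E library lay above the lower LRIF1 KO library, and the other libraries of the groups were separate. The log2 odds difference was 1.52 ± 0.28 (SE, limma on 4 against 3 lines).

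Ikbkg (chrX:74393290-74453778) encodes NEMO, the regulatory subunit of the IκB kinase complex in NF-κB signalling. Its fraction was 0.105 and 0.0802 in SMCHD1 KO, 0.0701 and 0.101 in E147A, 0.0678 and 0.0534 in Y353C, and 0.0749 and 0.0458 in LRIF1 KO. In the functional group iXist-ChrX had 0.0264 and 0.0367, Halo-SMCHD1 had 0.0362, 0.0156 and 0.0238, and G137E had 0.0146, 0.00865 and 0.0333. The groups did not overlap in any library. The log2 odds difference was 1.37 ± 0.25 (SE).

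Fam50a and Phf6 were more variable. Fam50a (chrX:74313032-74320149), a gene linked to pre-mRNA splicing, ranged from 0.0213 to 0.100 over the loss libraries (median 0.0556) and from 0 to 0.0569 over the functional libraries, of which 4 were listed at 0. Phf6 (chrX:52912213-52956961), a plant homeodomain protein that binds chromatin, ranged from 0.0182 to 0.0850 (median 0.0397) in the loss libraries and from 0 to 0.0319 (median 0.0163) in the functional libraries. Both ranges overlapped, with the highest functional value of either gene in an iXist-ChrX library. The log2 odds differences were 1.57 ± 0.28 for Fam50a and 1.13 ± 0.18 for Phf6 (SE).

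BC023829 (chrX:70460055-70477043) ranged from 0.0222 to 0.0806 (median 0.0361) in the loss libraries and from 0 to 0.0290 (median 0.0124) in the functional libraries. The annotation has no gene under this symbol. The interval overlaps that of Tmem185a on the same strand, which has no values of its own in the table. Whether both symbols name the same gene was not checked. Zxda (chrX:94791284-94798289) was listed at 0 in 5 of 8 functional libraries and in 1 loss library, and reached 0.200 in the other SMCHD1 KO library. The annotation lists Zxda as an unprocessed pseudogene, and whether it shares reads with the related gene Zxdb was not tested. The log2 odds differences were 1.156 ± 0.205 for BC023829 and 2.06 ± 0.39 for Zxda (SE).

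**Figure D2:**
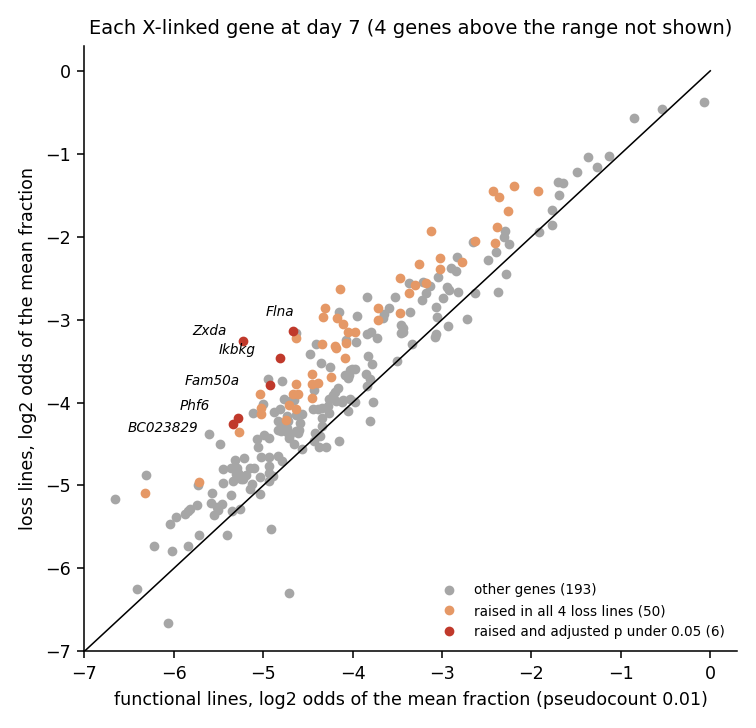
Log2 odds of the mean Xi/(Xi+Xa) of each gene in the 3 functional lines (x axis) and in the 4 loss lines (y axis), with equality as a line. Most of the 249 genes lie above the line, including 50 genes raised in all 4 loss lines (orange) and the 6 that also passed limma with lines as the unit (red); 4 genes with a functional mean above 0.5 fall outside the range shown.

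The 56 genes with each loss line mean above each functional line mean (22.5% of genes) were picked by the values compared here, so their levels are given as a description. They are referred to below as raised genes. The median raised gene had a fraction of 0.0907 in the loss lines and 0.0430 in the functional lines, a median ratio of 1.84. Over all 249 genes these medians were 0.0574 and 0.0380, with a ratio of 1.41. The median log2 odds difference was 0.82 for the raised genes and 0.40 for all genes. Of the 56 genes, 43 were also called with libraries as the unit and 6 with lines as the unit. Libraries of the groups overlapped in 52 of them, and 14 had at least 1 functional library listed at 0. The gene nearest to the limit on the inside was Slc25a14, with 0.0369 in its lowest loss line against 0.0367 in its highest functional line. Outside it, these line values were equal in Ube2a, at 1, and in Tmem28, at 0, and Dusp9 came next with 0.0111 in both. When each loss line was compared with its own parental line only, 114 genes (45.8%) were higher in all 4 comparisons and 4 (1.61%) were lower in all 4; 3 of these comparisons share Halo-SMCHD1 as the control. Without G137E, the mutant line of the functional group, 66 genes lay higher in each loss line, and limma called 0 genes with lines as the unit and 19 with libraries. The number of raised genes was 113 without iXist-ChrX, 92 without LRIF1 KO and 36 without iXist-ChrX library b.

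Relative to the shift of all genes, no gene passed the test. With each library centred on its own median log2 odds, an alternative chosen after seeing the data, limma called 0 genes with either unit, against a median shift of all genes of 0.40 with lines and 0.43 with libraries. At an unadjusted p under 0.05, 19 genes lay above and 20 below this shift with lines as the unit, and 20 above and 28 below with libraries as the unit. The smallest line-unit p after centring belonged to Fam50a, 1.04 ± 0.21 above the shift (SE, limma adjusted p = 0.183), followed by Zxda at 1.53 ± 0.31.

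In 4 genes (1.61%) all 8 loss libraries lay above all 8 functional libraries, and in 0 did the reverse hold. These were Ikbkg, described above, Araf, Nkap and Taf1. Araf (chrX:20848542-20852905), a kinase of the RAF family in MAP kinase signalling, had 0.112 and 0.193 in SMCHD1 KO, 0.196 and 0.171 in E147A, 0.134 and 0.177 in Y353C, and 0.153 and 0.139 in LRIF1 KO. In the functional libraries Araf had 0.105 and 0.0868 in iXist-ChrX, while Halo-SMCHD1 gave 0.0703, 0.0619 and 0.0828, and G137E gave 0.100, 0.0737 and 0.103. SMCHD1 KO replicate 1 came closest to the functional libraries.

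Nkap (chrX:37126762-37150746), which acts in transcriptional repression and RNA splicing, kept high fractions in both groups, from 0.219 to 0.356 (median 0.269) in the loss libraries and from 0.131 to 0.198 (median 0.175) in the functional libraries. Taf1 (chrX:101532734-101601789), the largest subunit of the general transcription factor TFIID, ranged from 0.131 to 0.178 (median 0.153) and from 0.0869 to 0.120 (median 0.0965). The log2 odds differences were 0.93 ± 0.19 for Araf, 0.79 ± 0.19 for Nkap and 0.63 ± 0.17 for Taf1 (SE). With lines as the unit these 3 genes missed the threshold (limma adjusted p of 0.0574, 0.0574 and 0.0652), and with libraries as the unit they passed (0.00159, 0.00258 and 0.00185).

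**Figure D3:**
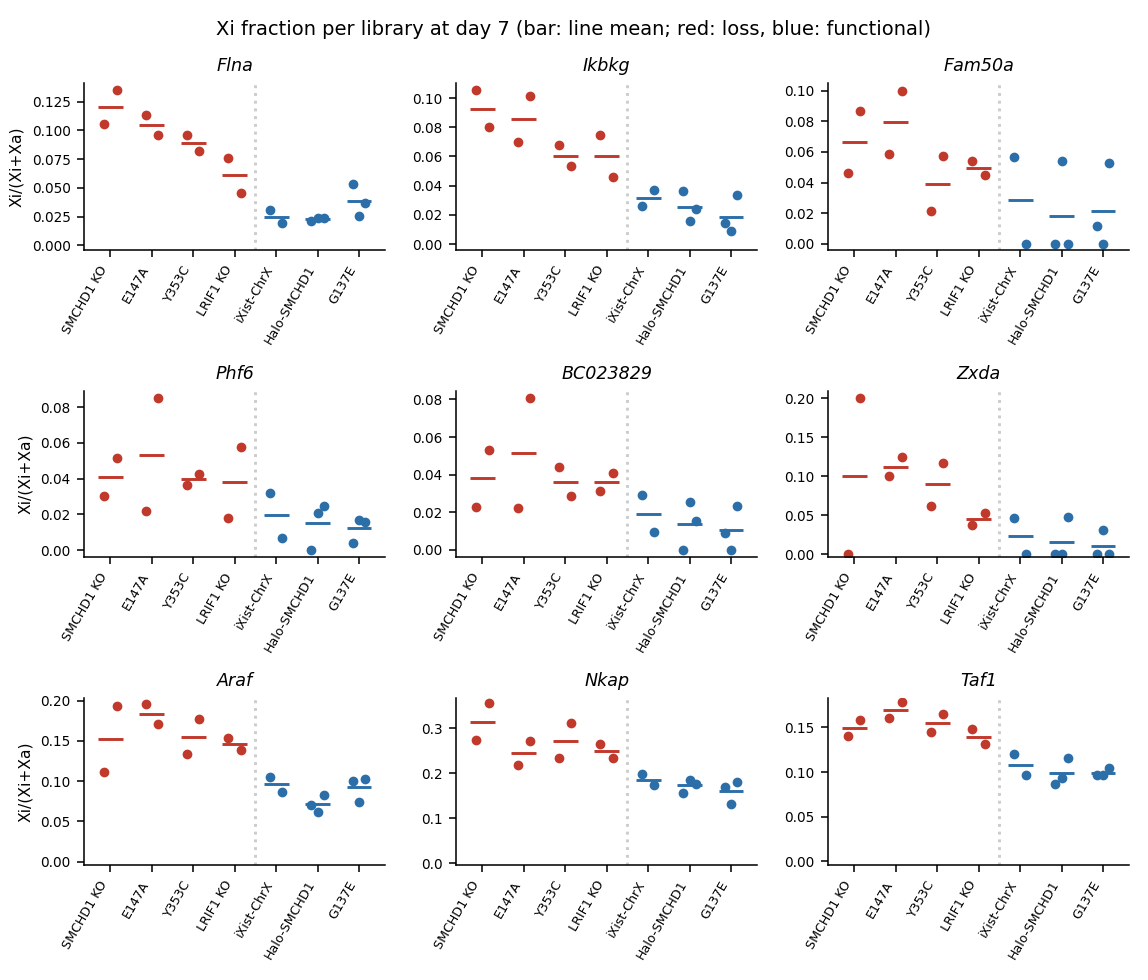
Xi/(Xi+Xa) at day 7 (y axis, own scale per panel) of 9 genes in each library, by line (x axis, loss lines in red, functional lines in blue, bars for line means). The top 2 rows show the 6 genes called with lines as the unit and the last row 3 of the genes in which all 8 loss libraries exceed all 8 functional libraries.

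The raised genes were set out by role with lists of X-linked genes, for which counts and medians are given without a test. Of the mitochondrial and metabolic genes 10 of 19 measured were raised genes, against 56 of 249 over the table, and their median log2 odds difference was 0.71 against 0.40. With libraries as the unit 7 of the 19 passed, against 51 of 249 over the table, and with lines as the unit 0, against 6 of 249. Idh3g, a subunit of isocitrate dehydrogenase, ranged from 0.179 to 0.328 (median 0.241) in the loss libraries and from 0.108 to 0.206 (median 0.148) in the functional libraries. Nsdhl, an enzyme of cholesterol synthesis, had line means of 0.0541 ± 0.0173 (SD, n = 4) and 0.0202 ± 0.00564 (SD, n = 3). Ids, a lysosomal sulphatase, had 0.0375 ± 0.00976 and 0.0157 ± 0.00117, and Fundc1, a receptor for mitophagy, 0.166 ± 0.0266 and 0.102 ± 0.0134. All 4 passed with libraries as the unit (limma adjusted p of 0.00667 to 0.00965) and none with lines (0.0574 to 0.0750).

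Of the chromatin and transcription genes 10 of 27 measured were raised genes, against 22.5% over the table. Of the 27, 9 passed with libraries as the unit (20.5% over the table) and 1 with lines (2.41%). The 10 raised genes were Phf6, Taf1, Hcfc1, Ogt, Stag2, Hdac8, Tfe3, Thoc2, Zbtb33 and Ercc6l. Of these, Stag2 and Thoc2 passed with neither unit. Zbtb33, which encodes the methyl-CpG binding protein Kaiso, had 0.114 ± 0.0426 in the loss lines and 0.0391 ± 0.0235 in the functional lines, but 4 of its 8 functional values were 0 and 1, in Halo-SMCHD1 replicate 1, was 0.158. Ercc6l, a DNA translocase of mitotic chromosomes, ranged from 0.0653 to 0.159 (median 0.100) in the loss libraries and from 0.0181 to 0.0682 (median 0.0377) in the functional libraries. It belongs to the mitosis and cytoskeleton list as well, in which 5 of 14 measured were raised genes (22.5% over the table), together with Flna, Emd, Stag2 and Kif4, and 4 passed with libraries as the unit (20.5%) and 1 with lines (2.41%). Kif4, a kinesin of the mitotic spindle and chromosome axis, had 0.0885 ± 0.0286 in the loss lines and 0.0294 ± 0.00914 in the functional lines, a log2 odds difference of 1.39 ± 0.32 (SE, limma adjusted p = 0.0574 with lines and 0.00159 with libraries). Emd, encoding the nuclear membrane protein emerin, had 0.132 ± 0.0362 and 0.0447 ± 0.0189.

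Signalling genes contributed 6 of 19 measured, against 22.5% over the table, and 6 passed with libraries as the unit (20.5%) and 1 with lines (2.41%). Besides Araf and Ikbkg they included Il1rapl1, a synaptic receptor-like protein, with 0.201 ± 0.0543 in the loss lines and 0.0951 ± 0.0286 in the functional lines. Before induction the Il1rapl1 fraction already stood at 0.965, far from an even share of the alleles. Gpc3, a cell surface proteoglycan, was among the most completely silenced of the raised genes, with 0.0219 ± 0.00521 and 0.00898 ± 0.00187. Of the trafficking and membrane genes 8 of 25 measured were raised genes (22.5% over the table), and 7 passed with libraries as the unit (20.5%) and 0 with lines (2.41%). Among them Vma21, an assembly factor of the vacuolar proton pump, ranged from 0.103 to 0.217 (median 0.140) in the loss libraries and from 0.0616 to 0.105 (median 0.0691) in the functional libraries, and Bcap31, a chaperone of the endoplasmic reticulum, had 0.0833 ± 0.0189 and 0.0428 ± 0.00874.

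In 2 further lists the shares were near that of the table (22.5%), with 4 of 22 measured RNA processing and translation genes and 2 of 10 ubiquitin pathway genes. With libraries as the unit 4 and 3 of these passed, against 51 of 249. The RNA genes had a median log2 odds difference of 0.44 and the ubiquitin genes one of 0.41, near the 0.40 of all genes. Xiap, an inhibitor of apoptosis with ubiquitin ligase activity, had 0.0593 ± 0.00911 in the loss lines and 0.0346 ± 0.00731 in the functional lines. Otud5, a deubiquitinase, had 0.168 ± 0.0320 and 0.115 ± 0.0176 and passed with libraries as the unit (limma adjusted p = 0.0235), but was no raised gene, with a mean of 0.132 in LRIF1 KO and of 0.136 in iXist-ChrX.

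Of 14 listed genes known to escape XCI 7 were measured, and 1 of them was a raised gene, against 56 of 249 over the table. With libraries as the unit 2 of the 7 passed, against 51 of 249. Ddx3x, an RNA helicase, ranged from 0.171 to 0.246 (median 0.206) in the loss libraries and from 0.116 to 0.185 (median 0.162) in the functional libraries, with a log2 odds difference of 0.50 ± 0.17 (SE, limma adjusted p = 0.116 with lines and 0.0235 with libraries). Kdm6a, a histone demethylase, had 0.324 ± 0.0124 and 0.275 ± 0.0319, and passed with libraries as the unit only (0.0436). Utp14a, which acts in ribosome biogenesis, had 0.278 ± 0.0198 and 0.237 ± 0.0294, and the long non-coding RNA Firre 0.174 ± 0.00411 and 0.153 ± 0.0196. Neither of the last pair passed with either unit. With each library centred on its median, the differences of these 4 genes lay below the shift of all genes, by line-unit log2 odds of -0.03 for Ddx3x, -0.20 for Kdm6a, -0.24 for Utp14a and -0.29 for Firre.

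Xist itself was transcribed almost entirely from the 129S chromosome in all 16 libraries. Its fraction ranged from 0.9979 to 0.9988 in the loss libraries and from 0.9983 to 0.9991 in the functional libraries, and limma gave an adjusted p of 0.902 with lines as the unit. The table gives the allelic share of Xist, not its amount. In 3 other genes the functional mean also lay above 0.5. Dynlt3, a dynein light chain, had 0.766 ± 0.0173 in the loss lines and 0.799 ± 0.0364 in the functional lines. Ube2a, a ubiquitin conjugating enzyme, was at 1 in all 16 libraries, and C330007P06Rik between 0.996 and 1, and both had also been at 0.997 or higher before induction.

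The 4 loss lines did not contribute equally. Among the raised genes E147A had the highest loss line mean in 30 genes, SMCHD1 KO in 20, and Y353C and LRIF1 KO in 3 each, whereas LRIF1 KO had the lowest in 35. The E147A mean rests on libraries that stood apart, with a median over all genes of 0.101 in library a and of 0.0526 in replicate 1, the latter equal to that of SMCHD1 KO replicate 1. Over all 249 genes E147A was highest in 140 and LRIF1 KO lowest in 138. Over its own parental line, the median gene was higher by 0.0368 in E147A, by 0.0181 in Y353C and by 0.00759 in LRIF1 KO, all against Halo-SMCHD1, and by 0.0107 in SMCHD1 KO against iXist-ChrX. For the raised genes these medians were 0.0605, 0.0370, 0.0313 and 0.0410. In the functional group the highest mean among the raised genes lay in iXist-ChrX for 36 genes, in G137E for 15 and in Halo-SMCHD1 for 5, and over all 249 genes for 154, 55 and 40. A moderated F test over the 4 loss lines found 1 gene to differ between them (0.402% of 249, limma adjusted p = 0.00237), and over the 3 functional lines 0 genes. At an unadjusted p under 0.05 these tests gave 12 (4.82%) and 13 genes (5.22%). The 1 gene was Spin4, encoding a reader of histone methylation, at 0.0625 and 0.0714 in E147A and 0.0227 and 0.0333 in Y353C, but at 0 in both libraries of SMCHD1 KO and LRIF1 KO. The interaction between the loss minus functional difference and the background, tagged or untagged, was tested by limma with libraries as the unit. This test called 0 of 249 genes, and 9 (3.61%) at an unadjusted p under 0.05. The untagged background holds only SMCHD1 KO and iXist-ChrX, so the test cannot separate the background from the clone.

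Libraries taken at other times were not used to choose the raised genes. They exist for the 5 lines with the Halo tag, as 1 library each before induction and after 24 h of dox. Before induction the median over genes was 0.514 in E147A, 0.520 in Y353C and 0.522 in LRIF1 KO, and 0.518 in Halo-SMCHD1 and 0.522 in G137E. After 24 h it was 0.270, 0.273 and 0.257 in the loss lines, and 0.237 and 0.277 in the functional lines. The groups overlapped at both times (two-sided exact permutation tests, 3 against 2, p = 1 and 0.8, smallest attainable 0.2).

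The raised genes can also be followed at these earlier times. Their median fraction was 0.516 before induction and 0.283 after 24 h, against 0.522 and 0.247 for the 193 genes not raised (mean of the 5 lines). The median difference between loss and functional lines in the raised genes was 0.00227 before induction and 0.00301 after 24 h, in the 5 Halo-tagged lines. Over all genes these medians were -0.00180 and 0.00223. At day 7, by which the raised genes were chosen, their median difference was 0.0420 over all 7 lines, so the sets of lines differ. The day 7 median over all genes was 0.0158. At day 5, with libraries of Halo-SMCHD1 and G137E alone, the median raised gene stood at 0.0813 and the median of all genes at 0.0643.

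**Figure D4:**
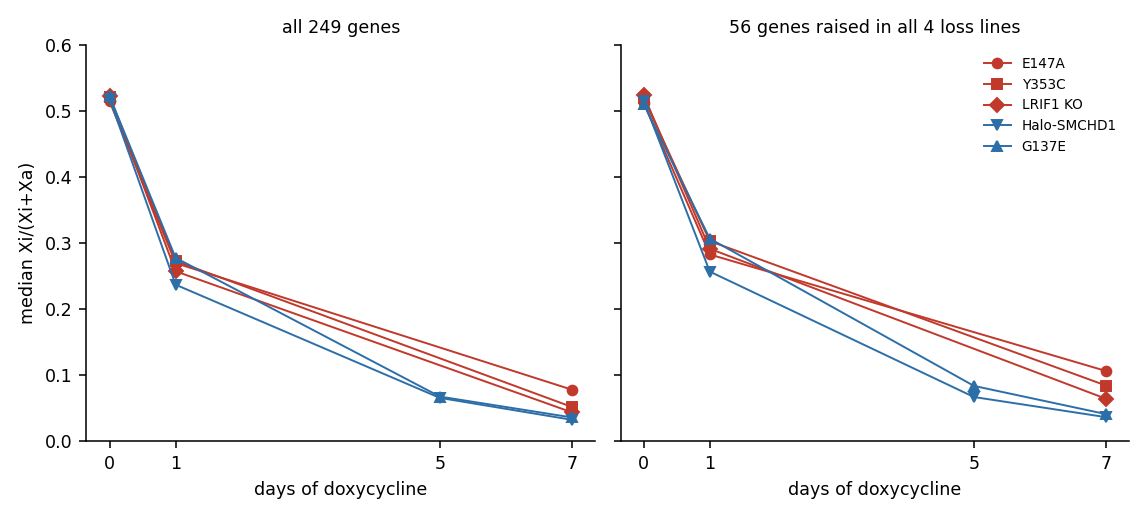
Median Xi/(Xi+Xa) (y axis) against days of dox (x axis) for all 249 genes (left) and the 56 raised genes (right) in the 5 Halo-tagged lines, loss lines in red and functional lines in blue. Cells were undifferentiated before induction and after 24 h, and differentiated at the later days. Points at day 5 are means of 2 library medians (functional lines only) and points at day 7 the medians of line means; the lines lie together before induction and after 24 h, and at day 7 the loss lines lie above the functional lines.

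The raised genes were found along all of the chromosome covered by the table, which reaches from 97.4 Mb on the centromeric side of Xist to Xist itself. By 20 Mb intervals of gene start counted from 0, they made up 7 of 50 genes, 6 of 33, 11 of 44, 19 of 64, 5 of 33 and 8 of 25. Their median distance from the Xist start was 31.1 Mb, against 46.1 Mb for all genes. The interval from 60 to 80 Mb, with 19 of 64, had the highest median log2 odds difference of these intervals, at 0.57. Flna, Emd, Taz, Fam50a, Ikbkg, Idh3g and Bcap31 lie there. The longest runs of adjacent raised genes in the table had 3 members, Ccdc120, Tfe3 and Gripap1 near the centromeric end and Thoc2, Xiap and Stag2 further along. Median gene length was 23776 bases for the raised genes and 25967 bases for all genes.

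**Figure D5:**
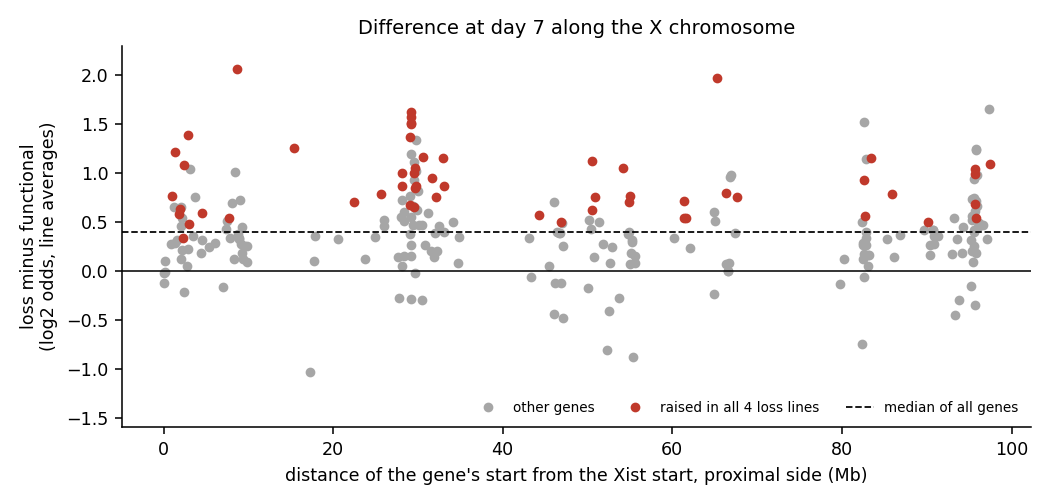
Difference between loss and functional lines at day 7 in log2 odds (y axis) against the distance of each gene's start from the Xist start in Mb (x axis). Raised genes (red) and other genes (grey) are spread along the whole range, and the dashed line marks the median of all genes at 0.40.

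Promoter sequence was looked up for the same genes, as 250 bases before to 50 after the start (RefSeq, GRCm38.p6), which matched 48 of the 56 raised genes and 201 of all 249. The letters CCATNTT, the core of the YY1 motif, occurred on either strand in 14 of the 48 (29.2%) and in 41 of the 201 (20.4%). A core of the CTCF motif, searched likewise, occurred in 2 (4.17%) and 7 (3.48%). The median number of CpG dinucleotides was 18 in both. Of the 4 genes with fully separated libraries only Araf held either motif. Its promoter (chrX:20848293-20848592, plus strand) is printed with the match on the minus strand in capitals.
Araf: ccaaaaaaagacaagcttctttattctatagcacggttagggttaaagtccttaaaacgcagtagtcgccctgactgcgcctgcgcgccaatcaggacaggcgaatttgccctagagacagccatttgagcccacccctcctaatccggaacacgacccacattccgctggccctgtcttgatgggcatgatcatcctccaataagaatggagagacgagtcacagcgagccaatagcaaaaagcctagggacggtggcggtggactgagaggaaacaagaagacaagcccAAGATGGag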

How the data were processed

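The 16 day 7 libraries were grouped by line from the labels. The pair of columns used for iXist-ChrX is headed by a clone name found in no label, and was assigned to this line because the definition of the comparison equates the names. Neither column could be tied to a numbered replicate (here library a and b). An E147A column with a replicate number that no label carries is called library a. Per the labels, 1 iXist-ChrX library went back from alignments to reads before processing, and which column holds it is not shown.

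The authors removed rRNA reads with bowtie2, mapped the remainder with STAR to mm10 masked at SNPs, assigned reads to alleles with SNPsplit, counted them per gene and strand with featureCounts, and required 10 reads over SNPs. Each deposited value is a fraction, Xi/(Xi+Xa), of 1 gene in 1 library, without normalization between libraries and without counts, so depth and precision per value are unknown. The table made with the K518E libraries was not used.

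Fractions were transformed to log2 odds with a pseudocount of 0.01 and tested with limma 3.58.1 in R 4.3.3, on 7 line averages or 16 libraries, without a filter, with Benjamini-Hochberg adjustment over 249 genes and a threshold of 0.05. The fits were tested on simulated data. Medians were compared by two-sided exact permutation tests, in which the smaller tail is doubled. With lines as the unit, p-values measure the spread between the lines of a group, which differ in genotype and are 1 clone each. With libraries as the unit, they measure the spread between all libraries of a group. Neither measures the spread between clones of a genotype. Coordinates are those of the table. In 81 of 100 plus-strand genes they start 1 base before RefSeq. Gene types and exons are from GENCODE vM21.

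Members, gene lists and tests were chosen with earlier results of these data known. Genes picked for naming were Xist, 20 raised genes (those called with lines as the unit, filled up by smallest p) and up to 5 lowered genes (0 found). Also picked were genes with fully separated libraries, genes with a functional mean above 0.5, and up to 4 genes per list by smallest p. Nudt11, Dock11 and Arhgap4 were picked but are not described above. Genes outside this rule, among them Nr0b1, Spin4, Slc25a14, Dusp9 and genes named as list members without values, were chosen after their values were seen. The alternatives tried are given in the closing section.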

Additional observations from a re-analysis of the deposited data

Results flagged for a closer look

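In 10 of 129 sets of 4 lines or 8 libraries, 1 value stood apart from the rest by Dixon's criterion. Chance does this in about 1 of 20 sets of normally distributed values, a rate that does not hold for fractions tied at a bound. In C330007P06Rik the remaining values of each set were equal, so any departure from them meets the criterion. The sets of Ube2a, which have no spread, were counted but could not be flagged. In the loss group Gpc3 had 0.0418 in LRIF1 KO replicate 1 against 0.0127 to 0.0243 in the other 7 libraries, Klhl15, a substrate adaptor of a ubiquitin ligase, had 0.0797 in E147A library a, and C330007P06Rik had 0.9968 in Y353C replicate 1 against 1 in the others. In the functional group iXist-ChrX library a had the outlying value of Gpc3 (0.0173) and of Mtcp1 (0.0686), Halo-SMCHD1 replicate 1 that of Zbtb33 (0.158) and Halo-SMCHD1 replicate 2 that of C330007P06Rik (0.9963). Among the 4 loss line means, E147A stood apart for BC023829 (0.0514), SMCHD1 KO for Firre (0.168) and Y353C for C330007P06Rik (0.9984). Spin4 differed between the loss lines (limma F test, adjusted p = 0.00237), with values above 0 in all 4 E147A and Y353C libraries and 0 in the 4 SMCHD1 KO and LRIF1 KO libraries.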

How the results depend on the processing

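The difference of line medians kept its direction in all 30 alternatives that were run. When single libraries were left out it ranged from 0.0145 without E147A library a to 0.0265 without E147A replicate 1. When lines were left out it ranged from 0.0146 without E147A to 0.0259 without LRIF1 KO. With lines as the unit it could not pass the threshold, since the smallest attainable p is 0.0571 with 4 against 3 lines and larger with fewer. It passed with libraries as the unit (0.0215, exact permutation p = 0.006682).

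With lines as the unit, the 6 limma calls became 1 and 20 with pseudocounts of 0.001 and 0.05, 12 with trend and robust eBayes, 14 without the line iXist-ChrX and 18 without LRIF1 KO. They became 0 with untransformed fractions, the background as a term, the Halo-tagged lines alone, centred libraries, and without the line SMCHD1 KO, Halo-SMCHD1, E147A, G137E or Y353C. Leaving out single libraries gave 0 to 36. A fit of the 16 libraries with the line as a random block gave 48 calls. With libraries as the unit, the 51 calls became 28 in the Halo-tagged lines, 0 after centring, 21 without SMCHD1 KO, 20 without Halo-SMCHD1, 25 without E147A and 19 without G137E, and 30 (without SMCHD1 KO replicate 2) to 72 when single libraries were left out. In every one of these fits 0 genes were called lower in the loss lines. The 56 raised genes became 114 against the parental line, 4 with fully separated libraries, 113 without iXist-ChrX, 92 without LRIF1 KO and 18 after centring, with 18 then lower. Leaving out single libraries gave 36 to 82. The cause of these changes was not tested.

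Replicate numbers were not taken to pair libraries of different lines, since 8 of 26 same-numbered pairs had a correlation over 0.1 (range -0.143 to 0.255). The pairs among SMCHD1 KO, Y353C and LRIF1 KO were all over 0.1, and in each of these lines replicate 1 had the lower median. For each combination of these lines, the replicate 1 pair and the replicate 2 pair gave the same correlation (0.255, 0.152 and 0.103). These pairs therefore do not count separately among the 26. In 11 libraries whose numbers occur in both groups, the replicate block gave 78 limma calls, against 69 without the block. The difference of medians with the block was 0.0243. Its permutation test exchanged libraries across replicate numbers (exact permutation p = 0.006061), so this p does not take the block into account. C330007P06Rik, at -0.00022 log2 odds, changed sign with a pseudocount of 0.05 (0.00011), on fractions (5.3e-06), with the background as a term (0.0058), in the Halo-tagged lines (0.0082), without iXist-ChrX or G137E (0.025 each), and without Y353C (0.051), with a range of -0.051 to 0.051 when single libraries were left out. With lines as the unit, centring put Ddx3x (-0.03), Kdm6a (-0.20), Utp14a (-0.24), Firre (-0.29) and Klhl15 (-0.08) below the shift of all genes. It also put Ube2a (-0.53), at 0 without centring, below this shift. Dynlt3 (-0.83), Xist (-0.56) and C330007P06Rik (-0.53) were negative without centring and lay below the shift too. With libraries as the unit Thoc2 (-0.04) and Usp11 (-0.01) also lay below it, and C330007P06Rik was at -0.56. Named genes other than C330007P06Rik and those put below the shift by centring kept their sign with lines as the unit. The unknown depth limits every value near 0.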

Other observations

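Some genes passed with libraries as the unit although their line means overlapped, and were looked at after their values were seen. Among them were Wdr45, Otud5, Rpgr, Kdm6a, Fam122b, Brcc3 and Rps4x. Tsix, the antisense partner of Xist, varied more between lines than between the groups, at 0.200 ± 0.117 in the loss lines (SD, n = 4) and 0.203 ± 0.0975 in the functional lines (SD, n = 3). The largest decrease in fraction was in Pnma5, at 0.435 in the loss lines and 0.487 in the functional lines (limma with lines, unadjusted p = 0.456). Nr0b1 was listed at 0 in 7 of 8 loss libraries and 4 of 8 functional libraries, with 0.0153 to 0.100 in the other functional libraries.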
